A study of Mus musculus with 9 samples.

Results

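The chow-fed control ventricle is described from 3 bulk RNA sequencing libraries of mouse heart, the Ctrl libraries, out of 9 libraries in the series. They were chosen by their label alone, and no comparison with the other libraries is made. The Ctrl animals were male, a hybrid of C57BL/6 and ICR, of genotype Tcf21iCre/R26 tdTomato. They received normal chow and tamoxifen by intraperitoneal injection in week 5 (5 days, 2 mg daily), and are labelled as 15 weeks. The other 6 libraries, Ctrl_HF and TTg_HF, come from animals given a high-fat diet and L-NAME, the second group with the added allele MGTH2A, and only their depth is used here. All 3 groups carry the Tcf21iCre allele, a Cre under Tcf21, a gene of fibroblasts and epicardium, and a tdTomato reporter, so the normal ventricle described here is that of Cre-carrying, tamoxifen-treated animals. The labels do not give the animals' age, nor state that each replicate is a separate animal, so the spread between libraries may be technical in part.

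The ventricle contracts without pause, and its cardiomyocytes are packed with sarcomeres and mitochondria. In the sarcomere, myosin heads on the thick filament pull on actin, and calcium that binds troponin on the thin filament switches the pull on. The calcium is released from the sarcoplasmic reticulum by the ryanodine receptor and pumped back by a calcium ATPase. Most parts of this machinery are encoded by small gene families whose members are used in heart, skeletal muscle or smooth muscle, and the adult mouse ventricle is known for its use of alpha-myosin (Myh6), the fast cardiac form, over beta-myosin (Myh7), the slow form of the fetal heart. The adult heart is also known for burning fatty acids in preference to glucose.

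Myh6 and Myh7 lie in tandem on the minus strand of chromosome 14 (GRCm38), with 3756 bases between them. Myh6 covers chr14:54941921-54966927 and Myh7 covers chr14:54970684-54994626. Each holds a microRNA gene in an intron, and a related one lies in an intron of Myh7b on chromosome 2. The mature forms are shown because each precursor is part of the transcript of its host myosin gene. Capitals mark the seed, bases 2 to 8, which pairs with target messages.
mmu-miR-208a-3p, intron 29 of Myh6, chr14:54949072-54949093, minus strand: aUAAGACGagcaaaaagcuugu
mmu-miR-208b-3p, intron 31 of Myh7, chr14:54975710-54975731, minus strand: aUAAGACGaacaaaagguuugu
mmu-miR-499-5p, intron 19 of Myh7b, chr2:155622893-155622913, plus strand: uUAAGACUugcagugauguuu
The sequences are RefSeq's for GRCm38.p6. miR-208a-3p and miR-208b-3p share the seed UAAGACG and 19 of 22 bases, with the substitutions G10A, A16G and C18U counted from the 5′ end of miR-208a-3p. miR-499-5p has the seed UAAGACU, with 6 of 7 bases in common with the others. The precursor rows Mir208a and Mir208b had 0 counts in all 3 libraries, which allows up to 3 counts per library, or 0.339 to 0.377 CPM, the counts scaled to the same total in each library. The libraries were made from ribosome-depleted total RNA, and the labels describe no selection of small RNAs.

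The starts of Myh6 and Myh7, and of the cardiac actin gene Actc1, are shown as RefSeq gives them, with 250 bases before and 50 after the start, because the levels of these genes carry the family results below. Capitals mark TATAAA, searched on both strands.
Myh6, chr14:54966558-54966857, minus strand: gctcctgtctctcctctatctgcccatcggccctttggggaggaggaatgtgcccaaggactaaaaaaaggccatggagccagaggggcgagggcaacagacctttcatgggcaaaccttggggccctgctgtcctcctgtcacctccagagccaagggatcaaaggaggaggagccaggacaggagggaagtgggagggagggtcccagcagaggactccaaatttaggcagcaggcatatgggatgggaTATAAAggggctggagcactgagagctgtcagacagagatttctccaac
Myh7, chr14:54994577-54994876, minus strand: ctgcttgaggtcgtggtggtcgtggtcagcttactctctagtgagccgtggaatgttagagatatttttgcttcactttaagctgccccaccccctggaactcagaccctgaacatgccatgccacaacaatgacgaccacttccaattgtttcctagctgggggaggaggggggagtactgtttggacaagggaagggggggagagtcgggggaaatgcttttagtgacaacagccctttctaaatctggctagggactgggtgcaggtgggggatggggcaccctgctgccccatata
Actc1, chr2:114052826-114053125, minus strand: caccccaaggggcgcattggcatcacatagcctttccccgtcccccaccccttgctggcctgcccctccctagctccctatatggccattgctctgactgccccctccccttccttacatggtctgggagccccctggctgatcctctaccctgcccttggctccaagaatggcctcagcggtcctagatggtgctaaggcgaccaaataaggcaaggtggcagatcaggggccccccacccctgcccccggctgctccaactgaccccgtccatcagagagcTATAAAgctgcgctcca
The Myh6 window holds TATAAA from base 252 and the Actc1 window from base 284, both after the start that RefSeq's window uses. The Myh7 window does not hold it. RefSeq lists 2 promoters for Myh7, and only the window nearest the GENCODE start of the gene is shown. The absence covers that window only. The Myh6 and Actc1 windows lie wholly inside the gene extents of GENCODE, chr14:54941921-54966927 and chr2:114047282-114053548. These sources thus place the start differently, and the windows may miss sequence before it. Of 32851 RefSeq promoters of this length, 13.6% hold TATAAA, against 5 of 34 (14.7%) among those of the 30 most abundant nuclear coding genes, of which 25 were matched, and 7.10% among those of all detected coding genes. AGATAA, the core of sites for GATA factors, was in 5 of these 34 promoters (14.7%), in 11.2% of all and in 6.21% of those of detected genes. The CArG box, the site of serum response factor, was in 4 of the 34 (11.8%), in 1.63% of all and in 1.35% of those of detected genes, and the Actc1 window holds it. The MEF2 site was in 2 of the 34 (5.88%), in 3.19% of all and in 1.85% of those of detected genes. These are matches of letters in a short window and no evidence of binding.

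The 3 libraries had 7951901, 8852515 and 8553124 counts in replicates 1, 2 and 3, within the range of 6743109 to 9364336 for the whole series. A gene was called detected when every library had at least 10 counts, and 11801 genes were. No pair of libraries was a copy of another: a chi-square test of the counts over genes gave 13.6 times its degrees of freedom for replicates 1 and 2, 11.2 for replicates 1 and 3 and 5.76 for replicates 2 and 3. Spearman's rho across genes was 0.982 to 0.989 for the pairs, across genes that are not independent. Replicate 1 thus stood further from the other libraries than they did from each other. Of the markers that define the labelled tissue, all 12 of cardiomyocytes were detected, and the atrial regulatory light chain Myl7 had 18, 45 and 18 counts.

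The RNA of the ventricle was concentrated in few genes. Between 265 and 335 genes held 50% of the counts of a library, and the 10 genes of highest count held 19.0%, 22.2% and 20.5% of the counts in replicates 1, 2 and 3. Protein-coding genes held 98.8% to 98.9% of the counts. By count, the first 4 were the cytochrome oxidase gene mt-Co1 at 5.00%, 5.31% and 4.78% of a library, the giant spring protein titin (Ttn) at 4.04%, 4.26% and 3.91%, Myh6 at 2.81%, 3.27% and 3.22%, and the calcium pump Atp2a2 at 1.78%, 1.75% and 1.80%. Counts grow with transcript length, so levels of different genes are compared per length, as counts per kilobase of the annotated transcript, scaled to the same total in each library, the unit known as TPM. The length matters, as levels with all annotated exons of a gene merged in place of its main transcript show. Of the 390 detected members of the lists and families, 68 were then over 1.5 times lower. None was over 1.5 times higher, but merging never shortens a gene, so a level could rise only through rescaling to the same total. Most levels below that moved so far are given on both scales. On the main scale Ttn, whose transcript is the longest of these, held rank 117 at 919 ± 43.9 TPM (SD, n = 3), with 942, 945 and 868 TPM in the 3 libraries.

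At or above 1000 TPM were 106 genes, which held 47.0% of the total. A further 1169 genes at 100 to 1000 TPM held 29.1%, 6544 genes at 10 to 100 TPM held 21.6%, and 3849 genes at 1 to 10 TPM held 1.94%. The remaining 133 detected genes were below 1 TPM.

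The 30 genes of highest level were mostly of 3 kinds. With merged exons 24 of the 30 remained, and Tnnt2 moved to rank 60, Slc25a3 to 98, Lpl to 52, Atp5g3 to 50, Cox4i1 to 38 and Tpm1 to 34. Transcripts of the mitochondrial genome took 8 places, among them mt-Co1 at 78454 ± 4452 TPM, mt-Nd1 of complex I at 39170 ± 9663 TPM and mt-Cytb of complex III at 36370 ± 6194 TPM. Sarcomere and calcium genes took 10: the ventricular light chains Myl2 and Myl3, Myh6, Actc1, Atp2a2, the troponins Tnni3, Tnnt2 and Tnnc1, tropomyosin Tpm1 and myosin binding protein C (Mybpc3). The third kind was nuclear genes of oxygen and energy supply. Myoglobin (Mb), which stores oxygen in muscle, was the highest nuclear gene at 19009 ± 489 TPM, with 19342, 18448 and 19238 TPM in the 3 libraries. The ATP synthase subunits Atp5b, Atp5a1 and Atp5g3 averaged 5927 ± 224, 4345 ± 228 and 3547 ± 75.6 TPM. Fabp3, which carries fatty acids through the cytosol, averaged 5781 ± 606 TPM, and lipoprotein lipase (Lpl), which frees them from lipoproteins, averaged 2954 ± 110 TPM. With merged exons Atp5g3 was at 1632 TPM and Lpl at 1611 TPM. The adenine nucleotide carrier Slc25a4, the phosphate carrier Slc25a3, the mitochondrial creatine kinase Ckmt2, the oxidase subunit Cox4i1 and the glycolytic aldolase Aldoa lay between 3004 and 4331 TPM. Outside these kinds was Gm26917, an annotated long noncoding RNA on chromosome 17, at 2922 ± 311 TPM. The libraries were ribosome-depleted, and whether counts given to Gm26917 come from remaining ribosomal RNA was not tested. Its level is therefore uncertain.

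**Figure D1:**
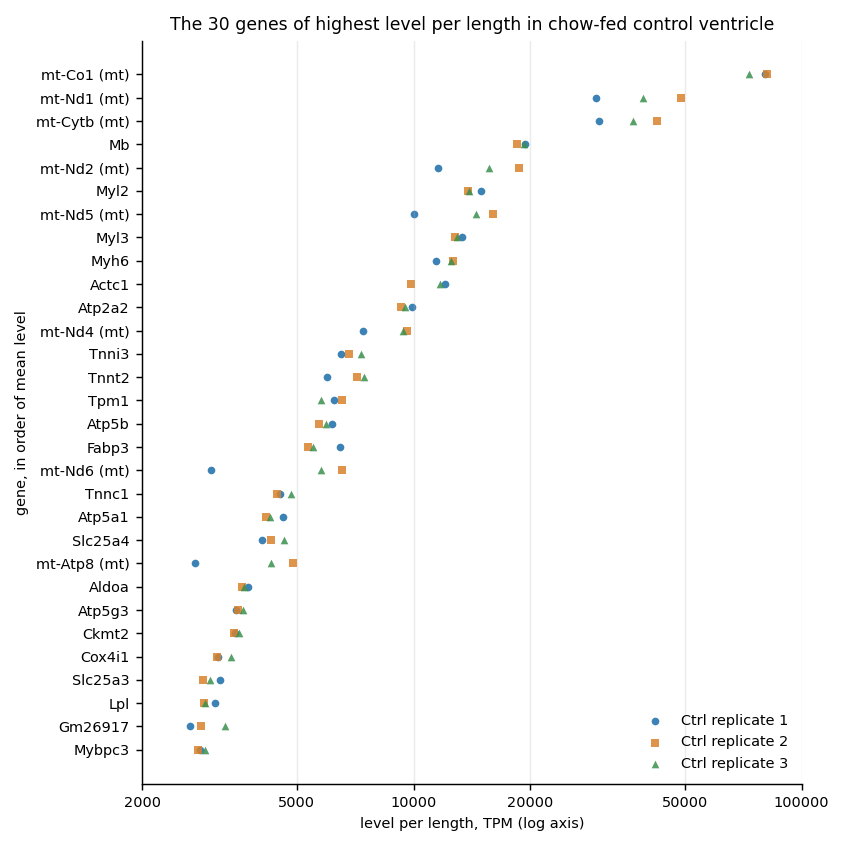
Level per length (TPM, log axis) of the 30 genes of highest mean level, with 1 point for each of the 3 Ctrl libraries. Mitochondrial genes (mt) other than mt-Co1 are lowest in replicate 1, while the points of Mb, Aldoa and Mybpc3 lie close together.

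The 13 messages of the mitochondrial genome, which encodes core subunits of the respiratory chain, summed to 175718, 229413 and 199837 TPM in replicates 1, 2 and 3, and held 9.23%, 12.1% and 10.7% of the counts. All 13 were highest in replicate 2 after TMM scaling. Their levels were far from even. mt-Co1 had 397322, 469785 and 408672 counts, while mt-Co2, a subunit of the same enzyme, had 130, 207 and 196. mt-Co3 of that enzyme averaged 127 ± 6.52 TPM, and mt-Atp6 averaged 320 ± 41.4 TPM beside mt-Atp8 at 3973 ± 1119 TPM, although both belong to ATP synthase. The 5 low genes, mt-Co2, mt-Co3, mt-Atp6, mt-Nd3 and mt-Nd4l, spanned 73.3 to 320 TPM, and the other 8 spanned 3973 to 78454 TPM. Each of the 5 low genes matches an annotated nuclear pseudogene at over 99% identity over more than 95% of its length, and none of the other 8 does. The closest match of mt-Co2 is Gm28661 at 100% identity, that of mt-Co3 is Gm28437 at 100%, and that of mt-Co1 is Gm13340 at 97.6%. Among the other 8, mt-Nd4 matches Gm28439 at 100% identity over 63.6% of its length. Those pseudogenes had 0 counts. The sources used here do not say how the counting treated reads that match more than 1 place. The levels of the 5 low genes and of mt-Nd4 are therefore uncertain. At the looser limit of at least 95% identity over at least 50% of the transcript, 8 of the 13 have a near copy. These include mt-Co1 and mt-Nd5, whose levels are uncertain for the same reason. The ribosomal RNA rows mt-Rnr1 and mt-Rnr2 had 0 counts in every library.

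Family choice was sharp in the contractile machinery. In 68 gene families the leading member was set beside the rest of its family per length, and it held over 99% in 14 families, over 90% in 29 (the 14 included), 50% to 90% in 35 and less in 4. The leading member was the same in all 3 libraries in 65 families. A paired test over 3 libraries cannot give a two-sided p below 0.25, so orders are given by the libraries that show them and by the spread.

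Among the myosin heavy chains Myh6 had 223082, 289330 and 275122 counts and Myh7 had 13799, 12537 and 10643 counts in replicates 1, 2 and 3. Per length this was 11442, 12670 and 12477 TPM for Myh6 and 694, 539 and 474 TPM for Myh7. Myh6 was the higher in every library, 16.5, 23.5 and 26.3 times Myh7, and no library came close to parity. Its share of the 8 heavy chains was 93.9%, 95.6% and 96.1%, and by count alone the exact 95% interval (Clopper-Pearson, counting error only) was 93.7% to 93.9% in replicate 1 and 95.9% to 96.1% in replicate 3. The libraries thus differed by more than counting error, with the lowest share in replicate 1. Myh7b, the slow-type myosin that hosts miR-499, averaged 43.5 ± 7.68 TPM. The fast and embryonic skeletal genes Myh1, Myh3 and Myh4 had no count, Myh2 had 1 and Myh8 had 2 in all. Mhrt, a noncoding RNA antisense to Myh7, had 62, 125 and 154 counts. Whether the counting used strand is not given, so its counts and those of Myh7 cannot be told apart with certainty.

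The light chains followed the ventricular pattern. Myl2, the ventricular regulatory light chain, averaged 14214 ± 609 TPM and held 99.9% of its family, while Myl7, the atrial form, had 9.57, 20.4 and 8.46 TPM. Myl3, the ventricular essential light chain, averaged 13018 ± 307 TPM. Its next relative was Myl1 of fast skeletal muscle at 140, 240 and 208 TPM, and the atrial Myl4 averaged 17.0 ± 5.06 TPM. With merged exons Myl2, Myl3 and Myl4 were at 7378, 8286 and 4.79 TPM. Myl3 stood at 1.07 ± 0.0851 times Myh6, its partner in 1 myosin molecule, but at 0.539 times with merged exons, so the order of these genes turned with the length used.

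Thin filament genes were cardiac forms too. Cardiac actin Actc1 had 12021, 9876 and 11679 TPM, beside skeletal actin Acta1 at 232, 419 and 656 TPM. Acta1 varied by 50.7% (coefficient of variation after TMM scaling, against 7.61% for Actc1), with the lowest value in replicate 1 and the highest in replicate 3, and its ratio to Actc1 moved with it: Actc1 was 51.8, 23.6 and 17.8 times Acta1. Smooth muscle actin Acta2 averaged 59.5 ± 9.85 TPM. Troponin I was almost wholly Tnni3, which had 18947, 23198 and 24106 counts. The slow skeletal Tnni1, the form of the fetal heart, had 0, 1 and 0 counts, and the fast Tnni2 had 1, 3 and 3. Troponin C was Tnnc1 alone, since Tnnc2 had no count. Troponin T was 99.8% Tnnt2, tropomyosin 98.3% Tpm1, alpha-actinin 95.5% Actn2 and myosin binding protein C 99.3% Mybpc3. Tnni3, Tnnt2 and Tnnc1, which form 1 complex, averaged 6884 ± 412, 6848 ± 767 and 4599 ± 213 TPM. With merged exons they were at 4223, 1470 and 4422 TPM, so their order turned with the length used. Tpm1 was at 2413 TPM on that scale.

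**Figure D2:**
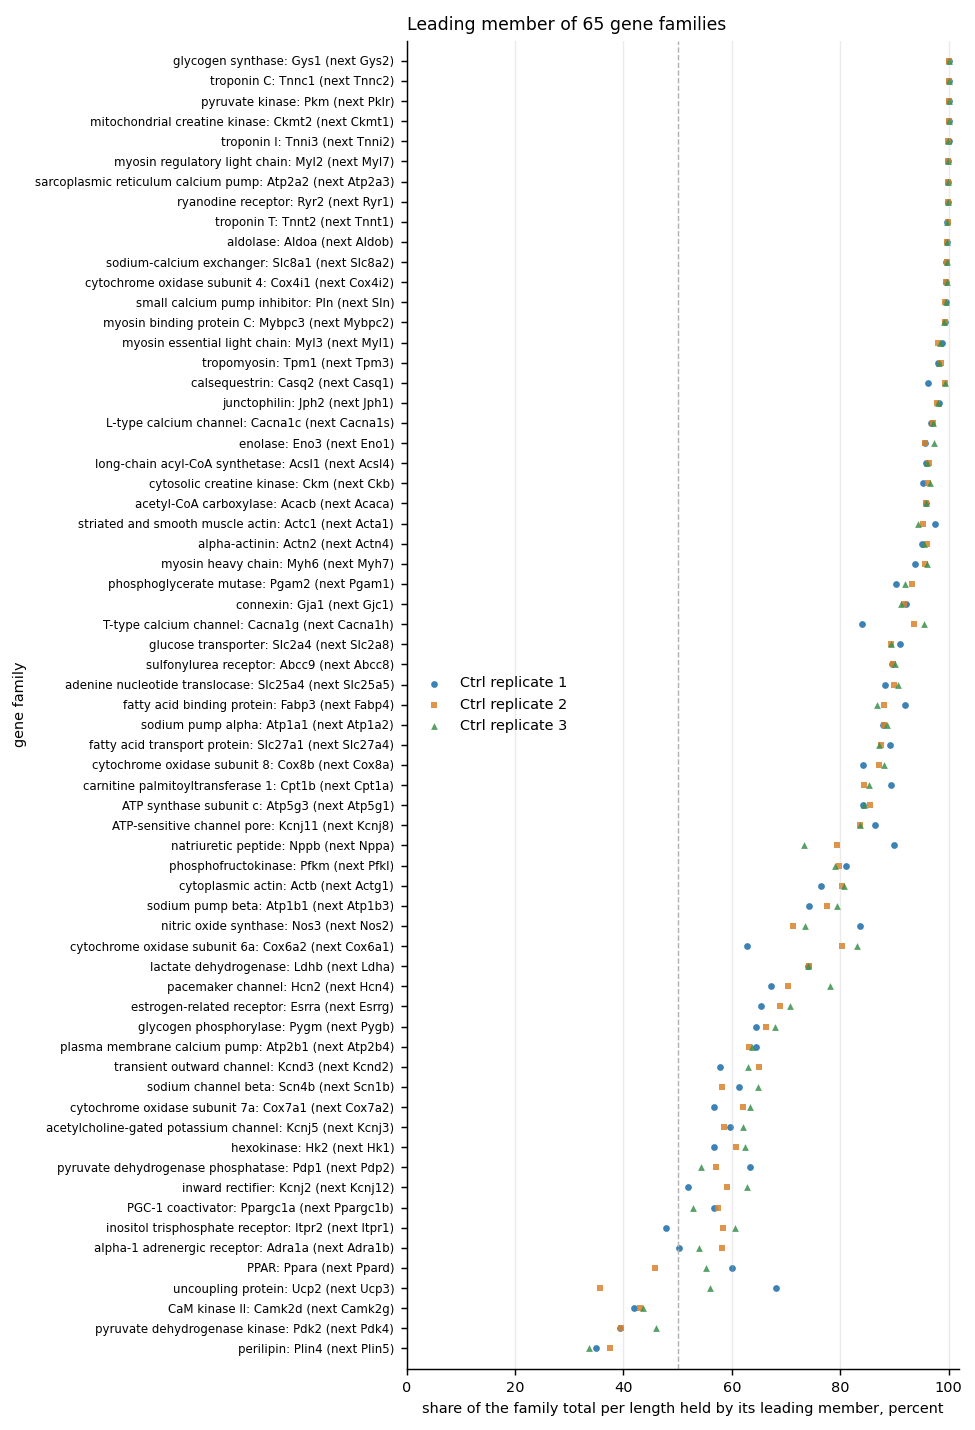
Share of each family's total per length that its leading member held, with 1 point per Ctrl library; the next member is named in brackets. The upper families lie near 100% in every library, and the lower ones, such as Ucp2, Pdk2 and Plin4, lie near or under 50% (dashed line) and spread more. Drawn are 65 of the 68 families, and the Mybphl family, with at most 5 counts in a gene and library, is among those left out.

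Calcium release and return showed the same pattern of a single strong member. Atp2a2, the cardiac calcium pump of the sarcoplasmic reticulum, had 9885, 9267 and 9490 TPM, and averaged 9547 ± 313 TPM. Its relatives Atp2a3 and Atp2a1 averaged 9.11 ± 0.576 and 0.364 ± 0.160 TPM. Phospholamban (Pln), which restrains that pump, had 948, 721 and 595 TPM, so the pump stood at 10.4, 12.8 and 15.9 times its inhibitor. Sarcolipin (Sln), the atrial inhibitor, had 19, 26 and 11 counts. The release channel Ryr2 held 99.9% of its family at 956 ± 40.2 TPM. Junctophilin 2 (Jph2), which ties the reticulum to the surface membrane, had 406, 366 and 381 TPM and the sodium-calcium exchanger Slc8a1 averaged 522 ± 20.1 TPM, or 122 TPM with merged exons. Casq2, the cardiac calcium store protein, had 1072, 882 and 1059 TPM. The skeletal Casq1 had 252 counts in replicate 1 and 42 and 46 in replicates 2 and 3, so its share of the pair was highest in replicate 1.

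Channel families varied more in how far 1 member led. The L-type calcium channel was 97.0% Cacna1c. The gap junction protein Gja1 held 91.7% of 5 connexins at 438 ± 13.9 TPM (189 TPM with merged exons), and Gja5, the connexin of atria and conduction fibres, had 2, 5 and 2 counts. Kcnj2 and Kcnj12, which carry the resting potassium current, were nearer each other, at 49.6 ± 11.3 and 30.3 ± 0.802 TPM, and Kcnj2 ranged from 37.1 to 59.0 TPM. The pore and regulator of the ATP-sensitive channel were Kcnj11 at 141 ± 7.83 TPM and Abcc9 at 255 ± 30.3 TPM. Of the pacemaker channels Hcn2 averaged 33.6 ± 8.36 TPM and Hcn4, the form of the sinus node, 9.57 ± 2.04 TPM. The order of Kcnd3, at 28.4 ± 0.710 TPM, over Kcnd2, at 15.1 ± 2.50 TPM, in the transient outward current turned with the transcript length used, as did that of Adra1a over Adra1b.

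The natriuretic peptides, hormones that the stretched heart secretes, varied between libraries. Nppb had 907, 432 and 585 TPM in replicates 1, 2 and 3, and Nppa had 101, 112 and 213 TPM. Nppb was the higher in each library, 5.20 ± 3.34 times Nppa, but the 2 genes were not highest in the same library.

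Of 16 transcription factors and cofactors of heart development and muscle, 14 were detected. Hopx, which restrains cardiomyocyte growth, was the highest at 394 ± 58.3 TPM, and Mef2d, a factor of muscle genes, had 277, 261 and 249 TPM (109 TPM with merged exons). Gata4 had 135, 91.0 and 98.4 TPM, Nkx2-5 averaged 80.3 ± 9.36 TPM, Mef2c 46.1 ± 1.98 TPM (25.6 TPM with merged exons), Tbx5 17.7 ± 1.39 TPM and Hand2 11.2 ± 3.76 TPM. Gata5 and Hand1, which act in the embryo, had at most 1 count in a library. Even the highest of them thus stood below every one of the 12 cardiomyocyte markers, of which Pln was the lowest at 755 TPM.

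Fatty acids are taken up, activated, carried into mitochondria as carnitine esters and broken down by beta-oxidation. All 8 genes of uptake and activation, all 6 of the carnitine shuttle and all 15 of beta-oxidation were detected. In the first list Fabp3 and Lpl led, followed by the fatty acid translocase Cd36 at 1377 ± 180 TPM and the acyl-CoA synthetase Acsl1 at 694 ± 48.1 TPM (358 TPM with merged exons), and the lowest was the transporter Slc27a4 at 18.2 ± 0.790 TPM. The carnitine shuttle was lower, between Slc22a5, which imports carnitine, at 22.6 ± 0.769 TPM and the acetyltransferase Crat at 317 ± 16.8 TPM. Its gate was the muscle form Cpt1b at 324, 244 and 250 TPM, 7.02 ± 1.74 times the liver form Cpt1a (10.6 times with merged exons), although an annotated read-through transcript shares much of Cpt1b. Beta-oxidation enzymes spanned Eci2 at 187 ± 18.8 TPM to Hadhb, a subunit of the trifunctional protein, at 1804 ± 327 TPM, with a median of 749 TPM. With merged exons Eci2 was at 66.9 TPM and Hadhb at 779 TPM, and Acadl, a dehydrogenase of long-chain acyl-CoA, was the highest at 1787 TPM. They summed to 13273, 11296 and 11344 TPM in replicates 1, 2 and 3. After TMM scaling 11 of the 15 were highest in replicate 1, as were 37.6% of all genes, and none had a spread beyond counting error over 30%, a limit that 5.55% of all genes passed.

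Glucose is taken up by Slc2a4, the insulin-regulated transporter, and split by glycolysis. All 16 genes of that list were detected and summed to 15083, 14465 and 14924 TPM. Aldoa led at 3670 ± 64.6 TPM, followed by lactate dehydrogenase B (Ldhb) at 2135 ± 80.4 TPM and the muscle enolase Eno3 at 2016 ± 145 TPM. Slc2a1, the transporter of most other cells, was the lowest at 10.2 ± 1.04 TPM, and Slc2a4 was 38.6, 38.6 and 33.2 times as high. The summed level of beta-oxidation was 0.880, 0.781 and 0.760 times that of glucose uptake and glycolysis, below 1 in every library. These are sums of messages over lists of 15 and 16 genes, and they measure no flux. The glucose list includes uptake, whereas the beta-oxidation sum does not. Fatty acid uptake and activation (11325 ± 959 TPM) and the carnitine shuttle (1089 ± 48.5 TPM) are separate lists left out of it. The ratio below 1 thus depends on how the lists were drawn. In the glycolysis list 6 of the 16 genes have a near-identical annotated copy (at least 95% identity over at least 50% of the transcript), and in the beta-oxidation list 2 of 15 do. Gapdh has 72 such copies, and its 2595, 1679 and 1724 counts are uncertain for that reason.

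Isozymes of glucose use were those of muscle. Ldhb, the heart form, was 2.85, 2.89 and 2.85 times Ldha (4.34 times its mean with merged exons) and held 74.1% of the family in every library to within 0.157 percentage points (SD). Eno3 held 96.2% of enolase, Pfkm 80.0% of phosphofructokinase, Pgam2 91.9% of phosphoglycerate mutase and Pygm 66.3% of glycogen phosphorylase, where the brain form Pygb averaged 639 ± 71.6 TPM. Hk2 was 1.51, 1.70 and 1.96 times Hk1, and 3.51 times its mean with merged exons. Pyruvate dehydrogenase, which feeds carbohydrate carbon into the citric acid cycle, is switched off by its kinases. Pdk2 had 395, 387 and 393 TPM and Pdk4, the kinase induced by fasting and fatty acids, had 425, 410 and 291 TPM, so Pdk4 was the higher in 2 libraries and Pdk2 in 1. Pdk1 averaged 176 ± 7.23 TPM and Pdk3 2.34 ± 1.06 TPM. The opposing phosphatases were lower, Pdp1 at 41.6 ± 4.47 TPM and Pdp2 at 29.9 ± 4.35 TPM. The order of Pdk2 and Pdk4, and that of Pdp1 and Pdp2, turned with the transcript length used.

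The shared end of both routes was high and even. All 16 citric acid cycle genes were detected at 362 to 2311 TPM, from fumarase (Fh1) to the isocitrate dehydrogenase Idh2, and summed to 17054 ± 794 TPM. Their median coefficient of variation between libraries was 2.32%, beside 10.4% over all 11333 genes with a mean of at least 20 counts. Over the 1000 most abundant of those genes, which have less counting error, it was 7.06%. Pyruvate entry ran from Pdk3 to Pdha1, the catalytic subunit of pyruvate dehydrogenase, at 769 ± 18.3 TPM. The list of energy transfer, from Ckb at 68.2 ± 7.92 TPM to Mb, summed to 33364 ± 780 TPM. Ckm held 96.0% of the cytosolic creatine kinases and Ckmt2 all but 2 counts of the mitochondrial pair.

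Muscle forms of cytochrome oxidase subunits led over the general forms, and by an amount that differed between libraries. Cox6a2, the heart and muscle form, had 325, 824 and 1171 TPM beside Cox6a1 at 193, 201 and 237 TPM. Cox7a1 was 1.81, 2.29 and 2.49 times Cox7a2, and Cox8b was 5.34, 6.78 and 7.45 times Cox8a. In all 3 pairs the muscle form's lead was smallest in replicate 1 and largest in replicate 3. Cox4i1 held 99.6% of its family.

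Other fuels had fewer messages. Ketone use summed to 1977, 1819 and 1845 TPM and was led by Oxct1, the enzyme that activates ketone bodies, at 1015 ± 53.2 TPM. Branched-chain amino acid use summed to 1425 ± 104 TPM between Ppm1k at 18.2 ± 2.92 TPM and Hibadh at 330 ± 17.3 TPM. With merged exons Hibadh was at 82.2 TPM and Bckdha, a subunit of the branched-chain keto acid dehydrogenase, was the highest at 312 TPM. In that list Mccc1 had 978, 526 and 497 counts, high in replicate 1. Triglyceride storage and lipolysis summed to 1367 ± 15.5 TPM, from the hormone-sensitive lipase Lipe at 10.4 ± 2.95 TPM to the monoglyceride lipase Mgll at 311 ± 31.1 TPM, though with merged exons Mgll was at 111 TPM and the triglyceride lipase Pnpla2 the highest at 287 TPM. No perilipin held more than 50% of its family: Plin4, Plin5, Plin3 and Plin2 averaged 174 ± 12.0, 119 ± 14.2, 118 ± 10.5 and 79.4 ± 3.58 TPM. Lactate and glycogen genes ran from the lactate exporter Slc16a3 at 2.94 ± 1.22 TPM to Pygm at 1262 ± 44.4 TPM.

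All 12 regulators of fuel genes were detected, at levels between the kinase subunit Prkaa1 at 5.22 ± 0.0616 TPM and the receptor Esrra at 139 ± 7.51 TPM. With merged exons the kinase subunit Prkaa2 was the highest at 158 TPM. Ppara, the receptor that drives fatty acid genes, had 56.4, 36.5 and 42.4 TPM, Ppard had 22.6, 22.9 and 20.1 TPM (13.2 TPM with merged exons) and Pparg 16.4 ± 3.36 TPM. The coactivators Ppargc1a and Ppargc1b averaged 58.9 ± 5.57 and 47.3 ± 8.81 TPM. Uncoupling protein genes Ucp2 and Ucp3 changed places between libraries: Ucp3 had 17.9, 64.2 and 35.2 TPM and Ucp2 had 38.4, 35.6 and 44.7 TPM, while Ucp1 of brown fat had no count.

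**Figure D3:**
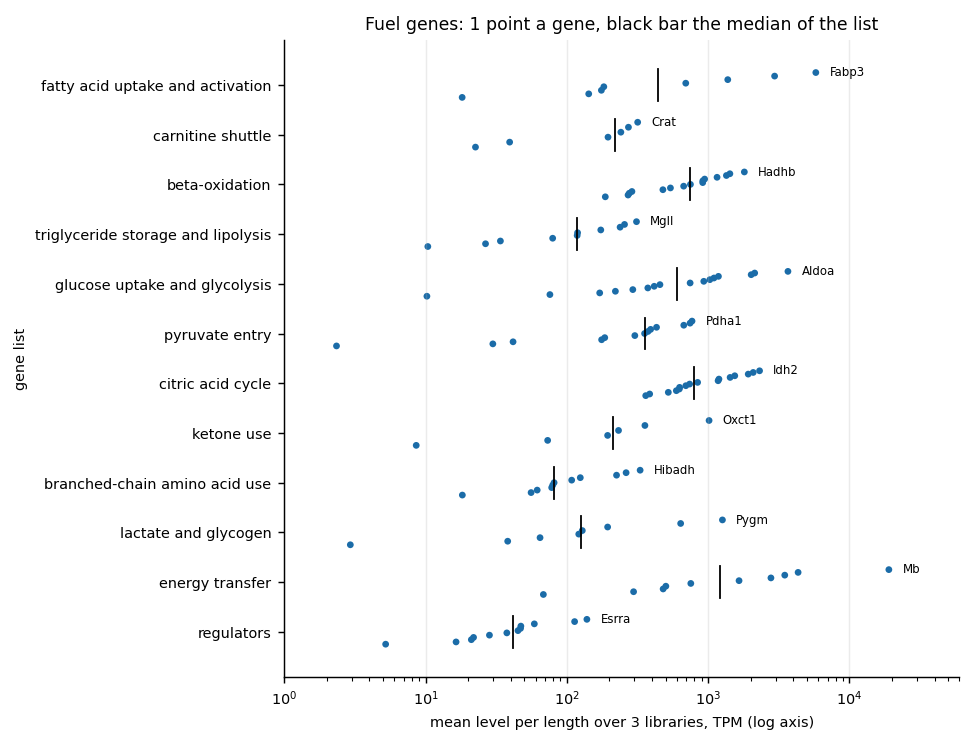
Mean level per length (TPM, log axis) over 3 Ctrl libraries of each gene of 12 fuel lists, with the highest gene of each list named and a black bar at the median. The citric acid cycle genes lie closest together, between 362 and 2311 TPM, and Mb is the highest point at 19009 TPM.

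Bulk RNA mixes all cells of the ventricle, and fewer cells of a type cannot be told apart from less RNA per cell. The 12 cardiomyocyte markers summed to 74083, 73150 and 75846 TPM in replicates 1, 2 and 3, from Pln to Myl2. The 12 fibroblast markers were all detected and summed to 2089, 1876 and 1900 TPM, so that cardiomyocyte markers stood at 38.1 ± 2.35 times fibroblast markers. Gelsolin (Gsn), which muscle cells also make, led that list at 826 ± 50.7 TPM, with the proteoglycan decorin (Dcn) at 638 ± 60.4 TPM, or 267 TPM with merged exons. The fibrillar collagens were lower and less steady: Col3a1 had 146, 58.0 and 92.0 TPM and Col1a1 had 78.7, 40.0 and 56.2 TPM, both highest in replicate 1 and lowest in replicate 2. Col15a1 followed with 93.5, 44.7 and 54.7 TPM. Pdgfra, a surface receptor of fibroblasts, was even at 24.8 ± 0.980 TPM. Tcf21, the gene whose regulation drives the Cre in these animals, had 20, 35 and 34 counts, or 6.59 ± 1.42 TPM.

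Vessel cells came next. All 12 markers of blood endothelium were detected and summed to 1550 ± 162 TPM, led by Fabp4 at 517, 688 and 793 TPM, with Pecam1 and Cdh5 of endothelial junctions at 136 ± 13.3 and 127 ± 6.53 TPM. With merged exons the list summed to 1017 TPM, with Fabp4 still the highest at 184 TPM and Pecam1 at 90.5 TPM. All 8 pericyte markers were detected, led by Rgs5 at 352 ± 61.1 TPM, although Abcc9 in that list is also the channel subunit of cardiomyocytes. The median of the pericyte list was 23.2 TPM. Of 6 smooth muscle markers 5 were detected, between Myh11 at 11.7 ± 1.14 TPM and smoothelin (Smtn) at 103 ± 6.52 TPM, and Cnn1 had 9, 10 and 16 counts. The 4 endocardial markers lay between Plvap at 10.1 ± 4.52 TPM and Cgnl1 at 24.2 ± 3.84 TPM. The 6 lymphatic markers ran from Pdpn at 4.63 ± 1.70 TPM to Prox1, which cardiomyocytes also express, at 58.1 ± 5.39 TPM.

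Macrophage markers were the most often detected of the leukocyte lists. Of 10 macrophage markers 9 were detected and the list summed to 475, 361 and 490 TPM. Lyz2 led at 197 ± 38.9 TPM, though Lyz1 is a near-identical relative, and the complement genes C1qa, C1qb and C1qc averaged 58.4 ± 12.4, 56.8 ± 7.26 and 44.8 ± 8.27 TPM. Fcgr1 had 6, 11 and 16 counts. None of 8 markers of T, natural killer and B cells was detected, with Cd3e of T cells at 6, 4 and 9 counts, so their level was at the limit of this depth. Of the neutrophil and mast cell list the receptor Kit alone was detected, with 51, 69 and 105 counts. The mast cell gene Cpa3 was the lowest of the list at 0.200 TPM, so Kit is not backed by it as a sign of mast cells. The neutrophil gene S100a9 had the highest mean of that list at 6.10 TPM, but not 10 counts in every library. The list summed to 25.9, 17.1 and 11.6 TPM in replicates 1, 2 and 3.

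Most markers of other cell types were near the floor. All 5 red cell genes were detected although hearts were perfused, led by the globin Hbb-bs at 979, 1331 and 1124 TPM, highest in replicate 2. The alpha-globin genes Hba-a1 and Hba-a2 are near-identical, so their split of 339 ± 46.8 and 383 ± 115 TPM is uncertain. The atrial list was led by Nppa at 142 ± 62.0 TPM, with Myl4, Myl7, Sln and Dkk3 at 3.71 to 17.0 TPM and Bmp10 at 2, 2 and 1 counts. Conduction system genes summed to 30.8 ± 0.234 TPM, led by Tbx3 at 15.6 ± 1.06 TPM. The Schwann cell and neuron list was led by Cdh19 at 5.23 ± 1.63 TPM. The epicardial factor Wt1 had 211, 90 and 89 counts, high in replicate 1, while the other 5 markers of mesothelium had at most 9 counts in a library. No adipocyte marker was detected and the list summed to 5.38 ± 2.90 TPM. Of 11 skeletal muscle genes Ckm alone was detected, a gene that heart shares, and of 8 genes of other organs 7 had no count and Apoa1 had 1.

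**Figure D4:**
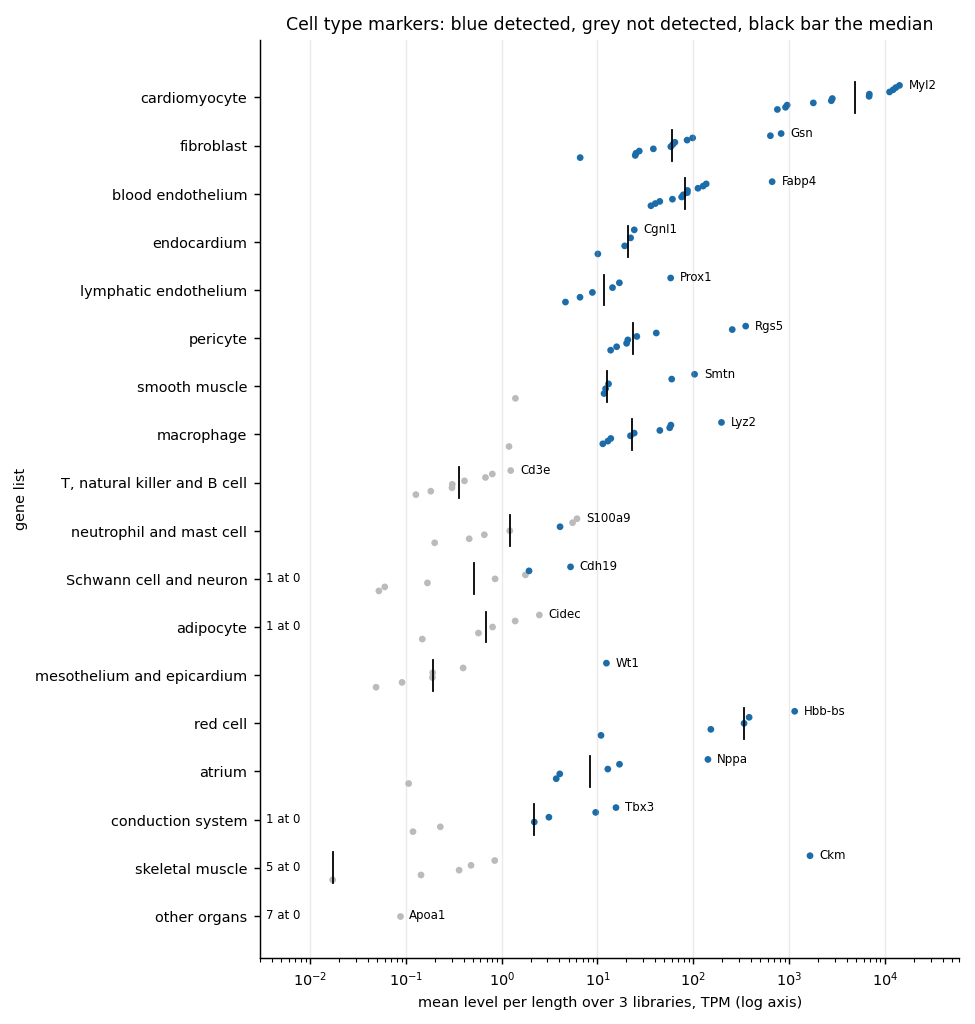
Mean level per length (TPM, log axis) over 3 Ctrl libraries of each marker gene, by cell type. Blue points were detected in every library and grey ones were not, a black bar marks the median of a list, and the number of genes with no count is written at the left. Cardiomyocyte markers lie at 755 TPM and above, and markers of T, natural killer and B cells at 1.24 TPM and below.

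The spread between libraries of this group was small for most genes. Over 11333 genes with a mean of at least 20 counts the median coefficient of variation of TMM-scaled counts was 10.4%, where counting alone gives 7.01% at the median. The part beyond counting was 6.84% at the median and 0 for 29.5% of the genes. It was over 30% for 629 genes (5.55%), of which 29 were among the 1000 most abundant. In 374 of the 629 genes replicate 1 was the library that stood apart, high in 197 and low in 177, against 134 genes for replicate 2 and 121 for replicate 3. Without replicate 1 the count was 432, without replicate 2 it was 803 and without replicate 3 it was 885. These counts rest on a spread over fewer libraries than the 629, so they compare with each other and not with it.

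The 20 genes of largest spread were of several kinds. Stress-induced genes were high in replicate 1: Atf3, a stress transcription factor, had 1857, 522 and 274 counts, Nr4a3, an immediate early nuclear receptor, had 1793, 298 and 512, and the deubiquitinase Otud1 had 2513, 512 and 634. The chaperone genes Hspa1b, Hspa1a and Dnajb1 had 216, 129 and 599 counts in replicate 1 against 15, 2 and 147 in replicate 2 and 49, 46 and 128 in replicate 3. Hspa1a and Hspa1b are 99.2% identical, so their split is uncertain. Also high in replicate 1 were Casq1, the cofactor Vgll2 with 111, 21 and 28 counts, the T-type calcium channel Cacna1h with 71, 11 and 10 counts, and the muscle growth inhibitor Mstn with 53, 7 and 21 counts, each highest in that library. Other muscle genes of large spread were low there, such as Acta1 and Cox6a2 described above and Ucp3 with 140, 587 and 311 counts. Clmn had 169, 49 and 35 counts and Ahcy, which has a near-identical relative, had 90, 22 and 6.

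The remaining genes among the 20 differed in the library that stood apart. Stbd1, which tethers glycogen to membranes, had 12, 17 and 203 counts, the matrix protease Mmp3 had 1, 6 and 65 and Fam46b had 19, 10 and 66, all high in replicate 3. Pard6b of cell polarity had 21, 286 and 28 counts, high in replicate 2 alone. Trim12a had 1, 103 and 30 counts, low in replicate 1. Its relative Trim5 is 97.0% identical over 64.1% of the Trim12a transcript, so the Trim12a counts are uncertain. Cyp2b10 had 110, 343 and 29 counts, Zfp979 had 26, 65 and 2 and Pde11a had 37, 23 and 0. The library that was high was thus not the same for all of these genes.

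**Figure D5:**
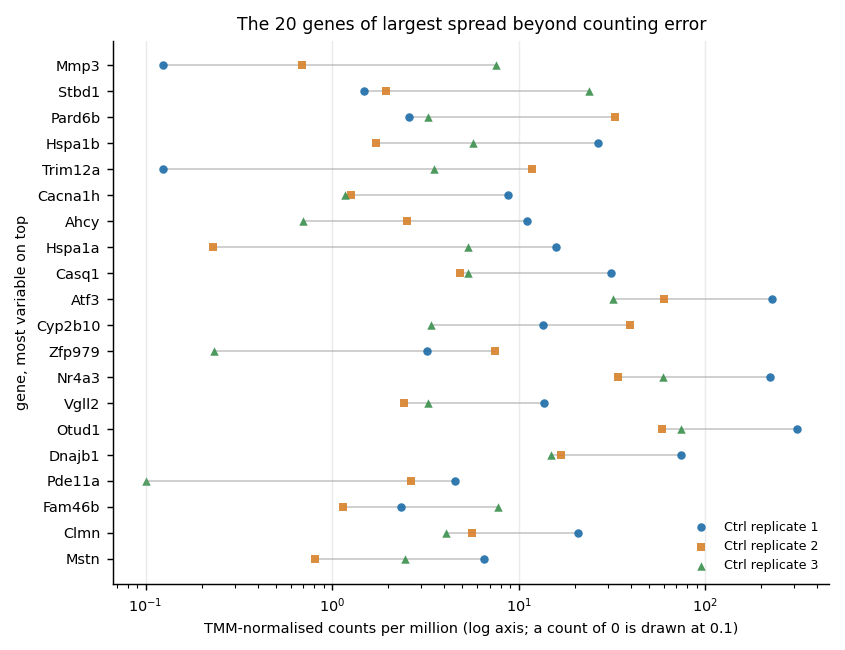
TMM-normalised CPM (log axis, with a count of 0 drawn at the axis's lowest labelled value) in each Ctrl library of the 20 genes of largest spread beyond counting error. Replicate 1 is the highest library for Atf3, Nr4a3, Otud1, Dnajb1, Casq1 and Clmn, replicate 3 for Mmp3, Stbd1 and Fam46b, and replicate 2 for Pard6b and Cyp2b10.

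Gene lists differed in spread. The 12 immediate early genes had a median coefficient of variation of 22.7%, with 5 highest in replicate 1 and 7 in replicate 3, where 37.6% and 30.9% of all genes were highest. Nr4a1 and Fosb had 3761, 1863 and 2211 and 346, 138 and 165 counts, high in replicate 1 as Atf3 was, whereas Egr1 had 2978, 3383 and 4382 and Ier2 had 482, 779 and 996, high in replicate 3. The 15 circadian clock genes, which cycle over the day in heart, had a median of 24.3%. Arntl, an activator of the clock, had 101, 23 and 31 counts, high in replicate 1, while its output factors Dbp and Hlf had 345, 686 and 543 and 214, 453 and 307 counts, low in replicate 1. The clock repressor Per1 had 1536, 1078 and 751 counts. The labels give no time of day for the collection. The 13 mitochondrial messages had a median of 21.1%, the 12 cardiomyocyte markers 8.62% and the glycolysis list 3.86%.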

How the data were processed

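RNA was taken from whole ventricle, ribosome-depleted and made into directional libraries, per the labels' protocols. The authors deposited a table of read counts per gene symbol for 9 libraries, of which the 3 Ctrl columns were used. Its 18 columns of derived values were not used. Per the submitters' processing notes the build is mm10. Which aligner and counter were used, and whether strand was used, is not given in those sources.

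Of 49585 rows, 95.9% were matched to GENCODE vM21 by symbol or synonym (gene structure on GRCm38), and rows with no length held 0.204% to 0.209% of the counts. Another 26 rows are named as dates, as spreadsheet programs write some gene symbols. Levels (TPM) are counts divided by the length of the main transcript, the basic transcript with the longest coding sequence, scaled to the same total in each library. This length was chosen after the levels had been seen, and merged exons, the longest and the APPRIS transcript were alternatives. Spread is the coefficient of variation of counts scaled by TMM (edgeR 4.0.16 in R 4.3.3). The part beyond counting error is the root of its square less 1 over the mean count, at a mean of at least 20 counts. In data simulated for 11333 genes it passed 30% in 77.5% of genes set at 60% and in 0.592% of genes set at 7%. DESeq2 1.42.0 size factors were an alternative. No test between groups was made. Near copies were found with BLAST among the annotated transcripts.

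The libraries hold 7951901 to 8852515 counts, so that 3 counts, the limit that a count of 0 allows, are 0.339 to 0.377 CPM. Intervals and limits cover counting error only. The members, gene lists and families were chosen with earlier results of these data known. Named genes were the 30 of highest level, the leading members of 68 families, the members of 36 lists and the 20 of largest spread, of which some are not reported here.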

Additional observations from a re-analysis of the deposited data

How the results depend on the processing

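Myh6 was at 15381 TPM with merged exons, 13611 TPM with the longest transcript and 15306 TPM without the mitochondrial genome, against 12197 TPM, and at 11960 to 12574 TPM with 1 library left out. Leaving out the mitochondrial genome raises all other levels by 0.32 on the log2 scale. The 30 genes of highest level shared 24 with merged exons and 22 without the mitochondrial genome. With merged exons and without the mitochondrial genome, beta-oxidation summed to 10179 and 14980 TPM, glycolysis to 14241 and 18574 TPM and cardiomyocyte markers to 61418 and 93197 TPM (71722 TPM with APPRIS transcripts). The 10 genes of highest count held 14.7% without the mitochondrial genome. Genes past 30% spread beyond counting numbered 2372 with no filter on low counts and 632 with DESeq2 size factors. With 1 library left out they numbered 432 to 885, from a spread over fewer libraries.

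The Myh6 share stayed within 94.8% to 96.1% in every alternative run. The leading member of 63 families of 68 was the same with merged exons, 66 with the longest transcript, 67 with APPRIS transcripts, 65 with no length and 66 to 67 with 1 library left out. The log2 ratio turned for Kcnd3 over Kcnd2 with merged exons (-0.93), the longest transcript (-0.51) and no length (-0.033), and was 0.82 to 1.04 with 1 library left out. It turned for Pdk2 over Pdk4 with merged exons (-0.42), no length (-0.57) and without replicate 3 (-0.096, up to 0.15 without the others). It turned for Pdp1 over Pdp2 with merged exons (-0.30), the longest transcript (-0.20), APPRIS (-0.20) and no length (-0.64). It turned for Ucp2 over Ucp3 with merged exons (-0.43), without replicate 1 (-0.31) and without replicate 3 (-0.15), and was 0.65 without replicate 2. It turned for Adra1a over Adra1b with merged exons (-0.51), and for Mybphl over Mybph, at most 5 counts each, without replicate 2 (-0.78, up to 2.96 without the others).

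No paired analysis was possible because only 1 group was described and no result comes from a test. Genes with near-identical copies, overlapping antisense genes and genes under 10 counts are the ones that this depth and counting leave uncertain.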

Other observations

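Noncoding RNAs other than Gm26917 were led by Malat1, a nuclear RNA of most cell types, at 617 ± 12.1 TPM (SD, n = 3), with 13984, 16169 and 15215 counts. Gm26809 had 112, 116 and 261 TPM and stood apart in replicate 3.

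Of 10 genes often used to normalise expression all were detected, and they differed in spread. Ppia, a prolyl isomerase, had a coefficient of variation of 1.29% after TMM scaling and Eef1a1, an elongation factor, 3.33%. Gapdh had 29.9%, with 639, 353 and 375 TPM in replicates 1, 2 and 3 and a mean of 195 TPM with merged exons. Actb had 1287, 799 and 1021 TPM. Gapdh and Actb were each highest in replicate 1. Gapdh, Eef1a1, Rpl13a, Rplp0 and Ppia have near-identical annotated copies, so their counts are uncertain.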
